A study of Homo sapiens with 6 samples.

Results

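The BCL2 family genes described here are 10 genes taken by symbol from the deposited count table of 20729 genes, of which 9 passed the filter on low counts and were tested among 15506 genes. They are the pro-survival genes BCL2, BCL2L1, MCL1 and BCL2A1, the effector gene BAK1, and the BH3-only genes BCL2L11, BID, BIK, BAD and BMF. The rule picked rows by name and used no measured value, but the members themselves were chosen with earlier results of these data known. RNA-seq libraries of cells labelled SW620, an established human colorectal cancer line grown from a lymph node metastasis, fell into 2 groups of 3. One group carries the genotype label siNC (control siRNA) and the other siOSBPL3 (siRNA against OSBPL3, which encodes an oxysterol-binding-protein-related lipid transfer protein), and no further allele, drug or time point is named. The siRNA sequence, dose and duration are not given in the sources used here. Nothing in the labels says that the 3 libraries of a group are separate cultures, so p-values rest on a spread between libraries that may be technical.

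BCL2 family proteins decide whether the outer mitochondrial membrane is opened, the step that releases cytochrome c and commits a cell to the mitochondrial pathway of apoptosis. The effectors BAK and BAX open the membrane, pro-survival proteins hold them in check, and BH3-only proteins report stress by activating the effectors or by occupying the groove of the pro-survival proteins. Colorectal cancer cells are known to lean on BCL-XL, the main product of BCL2L1, and on MCL1. Much of the regulation of these proteins lies in their stability, cleavage and phosphorylation, which transcript counts do not show.

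The short BH3 segment is what ties these genes together, so its coding sequence is shown for each member in which it was found. The principal coding transcripts (GENCODE 29, GRCh38) were searched in frame for a leucine codon followed, after 3 codons of any kind, by a glycine, alanine or serine codon and then an aspartate codon. A match was found in 9 of 10 members. Capitals mark the leucine codon and the last pair of codons of the match, and each run gives 36 bases 5′ to 3′ on the coding strand.
BCL2, chr18:63318352-63318387, minus strand, exon 2: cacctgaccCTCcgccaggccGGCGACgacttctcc
BCL2L1, chr20:31721925-31721960, minus strand, exon 2: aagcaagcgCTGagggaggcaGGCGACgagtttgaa
MCL1, chr1:150578868-150578903, minus strand, exon 1: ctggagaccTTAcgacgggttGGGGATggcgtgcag
BAK1, chr6:33575390-33575425, minus strand, exon 4: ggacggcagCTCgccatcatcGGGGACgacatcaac
BCL2L11, chr2:111150094-111150129, plus strand, exon 4: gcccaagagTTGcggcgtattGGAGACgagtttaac
BID, chr22:17739418-17739453, minus strand, exon 4: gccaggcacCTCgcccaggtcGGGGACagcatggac
BIK, chr22:43127707-43127742, plus strand, exon 3: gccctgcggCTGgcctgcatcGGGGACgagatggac
BAD, chr11:64271625-64271660, minus strand, exon 3: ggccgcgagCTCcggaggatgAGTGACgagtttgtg
BMF, chr15:40104198-40104233, minus strand, exon 4: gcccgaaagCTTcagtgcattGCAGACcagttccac
A glycine codon preceded the aspartate codon in 7 of the 9, a serine codon in BAD and an alanine codon in BMF. BID held 2 matches, of which the one with glycine is shown, and BCL2A1 held none. An asparagine-tryptophan-glycine run of codons, part of the groove of the multidomain proteins, was present in 5 members (BCL2, BCL2L1, MCL1, BCL2A1 and BAK1) and in none of the 5 BH3-only genes.

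The libraries held from 30040020 to 39701340 counts. OSBPL3, the target, stood at 179, 174 and 175 CPM (counts per 1000000, TMM-scaled) in siNC and at 40.2, 12.2 and 15.1 CPM in siOSBPL3, so that siOSBPL3 replicate 1 kept 22.8% of the siNC mean and the others 6.93% and 8.61%. Across the genes tested, pairs of siNC libraries had a Pearson's r of log2 CPM of 0.997, pairs of siOSBPL3 libraries 0.989 to 0.994, and pairs with 1 library of each group 0.802 to 0.809. Most of the transcriptome therefore differed between the groups, and whether this came with the siRNA or with another difference between the 2 sets of cells cannot be told apart. Colorectal epithelial markers were abundant in every library (15 markers, of which 7 were higher and 3 lower in siOSBPL3, summed level 7241 to 7317 CPM in siNC and 5239 to 6418 in siOSBPL3), although KRT20, CDX1, GPA33 and CEACAM5 stayed under 1 CPM throughout and CDX2 went from 1.15 ± 0.40 (SD, n = 3) to 63.5 ± 9.66 CPM. Of 7 leukocyte markers measured, 3 were higher and 2 lower in siOSBPL3 (summed level 20.4 to 22.9 CPM in siNC and 12.7 to 20.1 in siOSBPL3), with PTPRC and CD3E under 1 CPM in all libraries. The 7 fibroblast markers summed to between 70.0 and 74.4 CPM in siNC and between 3.46 and 5.98 in siOSBPL3. Most of that was LUM, at no count in siOSBPL3, while COL3A1, DCN, THY1 and FAP stayed under 1 CPM in all libraries, and the 3 endothelial markers summed to at most 2.37 CPM. The part of these markers in the results below was not tested, and in bulk RNA fewer cells of a type and less RNA per cell cannot be told apart.

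Of the 9 members tested, 6 were higher in siOSBPL3, 2 were lower and 1 did not pass the test (edgeR quasi-likelihood test, adjusted p under 0.05). Among all genes tested 80.2% passed, 40.4% higher and 39.8% lower, so 8 of 9 members (88.9%) is a share near the background. A change of at least 2-fold was seen in 5 of the 9, BCL2, BID, BIK and BAD upwards and BMF downwards, beside 48.9% of all genes tested. The median log2 fold change of the 9 was 0.86 and that of all genes -0.00089, while the median size without sign was 1.50 for the members and 1.00 for all genes. Over the genes tested transcripts with more GC tended to have higher log2 fold changes (Spearman 0.38 over 14435 genes, which are not independent), so each member's value with a correction for GC content and length is given where it differs by more than 1.5 times. With that correction 6 members were still higher and 2 lower, and the median of the 9 was 0.29. Of the 14435 genes tested with it, 5904 were higher and 5343 lower, with a median log2 fold change of 0.059.

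**Figure D1:**
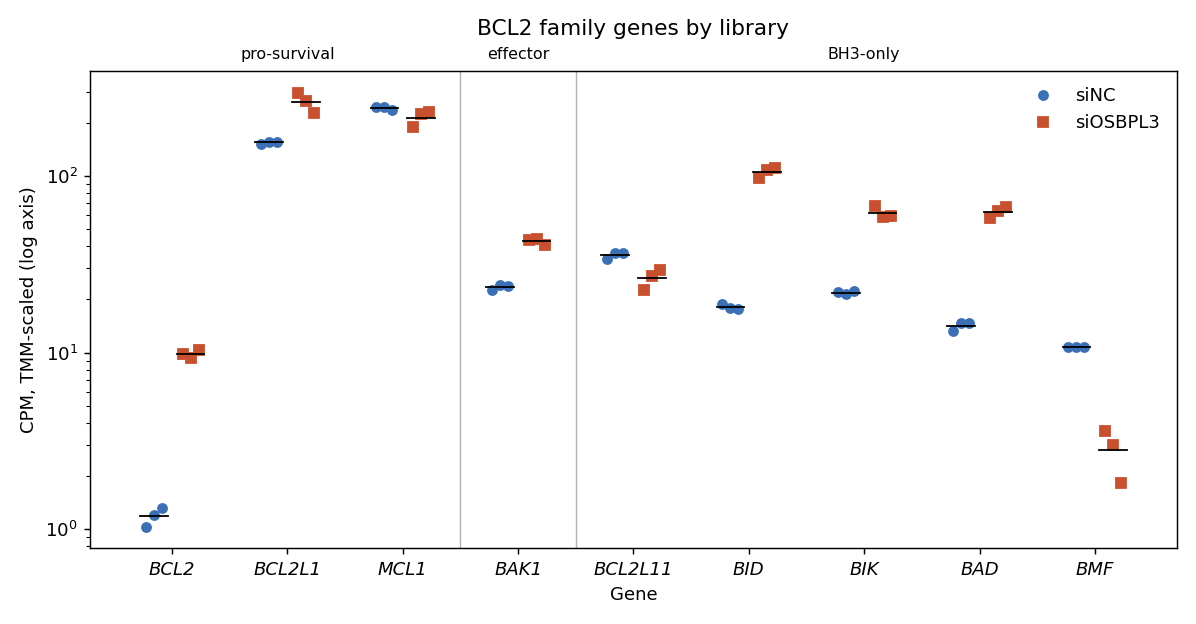
Level of the 9 tested members in each library, in TMM-scaled CPM on a log axis. Circles are siNC, squares siOSBPL3 (3 libraries each) and bars are group means. BCL2, BID, BIK, BAD and BMF show the widest gaps between the groups, and MCL1 the narrowest.

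Among pro-survival genes, the rise of BCL2 was the largest in ratio but began from a low level. BCL2 (chromosome 18, 63123346 to 63320090, GRCh38.p14), the founding member, whose product guards mitochondria and endoplasmic reticulum, was at 1.04, 1.21 and 1.31 CPM in siNC and at 9.86, 9.35 and 10.3 CPM in siOSBPL3. Every siOSBPL3 library lay far above every siNC library, and the spread within each group was small. This was an 8.29-fold rise, or 3.05 ± 0.20 (SE) on the log2 scale (adjusted p = 2.7e-08).

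BCL2L1 (chromosome 20, 31664452 to 31723963), the BCL-XL gene, stood at 153, 156 and 156 CPM in siNC and at 296, 266 and 227 CPM in siOSBPL3. The groups did not overlap, and the siOSBPL3 libraries were spread more widely than the siNC libraries, with replicate 1 the highest. BCL2L1 rose 1.70-fold (log2 fold change 0.76 ± 0.10 SE, adjusted p = 1.8e-05), and with the GC and length correction by 0.29 on the log2 scale (adjusted p = 0.0094). The main transcript is spliced into a long pro-survival and a short pro-apoptotic form, which gene counts do not separate. Of the 3314 exonic bases annotated for BCL2L1, 1424 lie opposite the antisense gene ABALON, which was at most at 0.547 CPM in any library.

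MCL1 (chromosome 1, 150574558 to 150579610), whose short-lived product restrains BAK and BIM, stood at 247, 245 and 237 CPM in siNC and at 188, 224 and 229 CPM in siOSBPL3. All siOSBPL3 libraries were below all siNC libraries, but replicate 1 was much lower than the others of its group. A log2 fold change of -0.18 ± 0.09 did not pass the test (adjusted p = 0.082). Alternatives gave MCL1 an adjusted p between 0.035 and 0.17. Without siOSBPL3 replicate 1 the value was -0.096 (adjusted p = 0.11). The test was passed when siOSBPL3 replicate 3 was left out (-0.23) and when genes averaging under 5 CPM were dropped (-0.18, adjusted p = 0.048), and with the GC and length correction its sign turned (0.15, adjusted p = 0.086).

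BCL2A1 (chromosome 15, 79960892 to 79971196), an NF-kB-inducible pro-survival gene of blood cells, had no count in any siNC library and 4, 0 and 0 counts in siOSBPL3. It did not pass the filter on low counts. With no count over the siNC libraries the level there could be up to 0.031 CPM (3 counts over the group; counting error only), and a fold is not given because the siOSBPL3 reads all lay in 1 library.

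BAK1 (chromosome 6, 33572552 to 33580276), the effector that sits in the outer mitochondrial membrane in healthy cells, rose modestly. It stood at 22.7, 24.0 and 23.8 CPM in siNC and at 43.4, 43.9 and 40.8 CPM in siOSBPL3. Both groups were tight and did not overlap. BAK1 rose 1.82-fold (log2 fold change 0.86 ± 0.09 SE, adjusted p = 2.1e-06), and with the GC and length correction by 0.29 on the log2 scale (adjusted p = 0.0046). The BAK1 transcripts have 58.7% GC, beside a median of 49.8% over the genes tested.

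The BH3-only genes moved in opposite directions: BID, BIK and BAD rose, and BMF and BCL2L11 fell. BID (chromosome 22, 17734138 to 17774665) links death receptors to mitochondria once caspase-8 has cut its product, and was at 18.8, 18.0 and 17.7 CPM in siNC and at 97.4, 108 and 110 CPM in siOSBPL3. All siOSBPL3 libraries lay well above all siNC libraries. BID rose 5.79-fold (log2 fold change 2.53 ± 0.09 SE, adjusted p = 1.5e-10), and its value hardly moved with the GC and length correction (2.43).

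BAD (chromosome 11, 64269828 to 64284704), whose product binds BCL2 and BCL-XL unless survival kinases phosphorylate it, was at 13.3, 14.7 and 14.7 CPM in siNC and at 57.7, 63.5 and 67.0 CPM in siOSBPL3. The groups were far apart relative to their spread. BAD rose 4.41-fold (log2 fold change 2.14 ± 0.10 SE, adjusted p = 1.5e-09). With the GC and length correction the value was 1.15, and BAD had the highest transcript GC content of the tested members (65.2%). Of its 1708 exonic bases, 404 lie opposite GPR137, which rose by 1.96 ± 0.12 (SE) on the log2 scale (adjusted p = 1.4e-08). As the strand setting of the counting is not given in the sources used here, reads from that stretch cannot be told apart.

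BIK (chromosome 22, 43110750 to 43129712), a BH3-only gene whose product sits at the endoplasmic reticulum, was at 21.9, 21.4 and 22.4 CPM in siNC and at 68.0, 58.9 and 59.4 CPM in siOSBPL3. Replicate 1 was the highest of the siOSBPL3 group, and no library crossed between groups. BIK rose 2.84-fold (log2 fold change 1.50 ± 0.09 SE, adjusted p = 1.9e-08).

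BMF (chromosome 15, 40087890 to 40108879), whose product is held at the actin cytoskeleton through dynein light chain until released, fell. It stood at 10.7, 10.8 and 10.8 CPM in siNC and at 3.60, 2.98 and 1.82 CPM in siOSBPL3. The siNC libraries were almost identical, while the siOSBPL3 libraries differed among themselves and all lay below. BMF was 3.85-fold lower on average (log2 fold change -1.95 ± 0.23 SE, adjusted p = 5.7e-06).

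BCL2L11 (chromosome 2, 111120914 to 111168445), the BIM gene, whose product binds all pro-survival members and is marked for destruction by ERK, was at 34.0, 36.7 and 36.8 CPM in siNC and at 22.7, 27.3 and 29.3 CPM in siOSBPL3. The groups did not overlap, with replicate 1 the lowest of siOSBPL3. BCL2L11 was 1.35-fold lower on average (log2 fold change -0.44 ± 0.11 SE, adjusted p = 0.0028), and with the GC and length correction it stood at -0.27 (adjusted p = 0.027). On the opposite strand MIR4435-2HG shares 727 of its 6658 exonic bases and stood at 33.5 ± 1.53 CPM in siNC and 35.6 ± 0.96 in siOSBPL3 (SD, n = 3 each).

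Of 14 other genes of the family tested, 8 rose, 4 fell and 2 did not pass (median log2 fold change 0.41), so 85.7% passed beside 80.2% of all genes, and 7 of 14 changed at least 2-fold beside 48.9%. With the GC and length correction 3 of the 14 changed at least 2-fold, beside 5823 of the 14435 genes tested with it. The other effectors rose. BAX, the partner of BAK, was at 54.0, 53.6 and 53.6 CPM in siNC and 132, 145 and 157 CPM in siOSBPL3 (1.43 ± 0.09 SE on the log2 scale, adjusted p = 1.7e-08). BOK, an effector-like gene found mostly at the endoplasmic reticulum, went from 2.56, 2.53 and 2.26 CPM to 47.6, 55.4 and 52.4 CPM. Its value of 4.40 ± 0.12 (SE) on the log2 scale (adjusted p = 2.8e-11) was larger than that of any of the 9 tested members. With the GC and length correction BAX and BOK stood at 0.72 and 3.30.

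Of the BH3-only genes outside the list of 10, the stress-induced genes BBC3 (PUMA) and PMAIP1 (NOXA, the ligand of MCL1) both rose. BBC3 was at 10.6, 9.37 and 9.00 CPM in siNC and 34.4, 23.8 and 26.1 CPM in siOSBPL3 (log2 fold change 1.54 ± 0.15 SE, and 0.54 with the GC and length correction). PMAIP1 was at 60.8, 59.8 and 58.5 CPM in siNC and 191, 143 and 175 CPM in siOSBPL3 (1.51 ± 0.11). HRK, a BH3-only gene of neurons, stayed near 1 CPM in both groups and did not pass (adjusted p = 0.60). BCL2L2, the pro-survival BCL-W gene, was at 49.0 ± 0.92 CPM in siNC and 40.3 ± 3.41 in siOSBPL3 (SD, n = 3 each; log2 fold change -0.28, adjusted p = 0.011), a call lost without siNC replicate 1 or replicate 2 (adjusted p = 0.051 each), and -0.68 with the correction.

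Less typical relatives went both ways. BCL2L12 rose by 1.49 on the log2 scale (0.87 with the GC and length correction), BNIP1 by 0.57 and BCL2L13 by 0.24. The BCL2L13 call was lost without siNC replicate 3 (adjusted p = 0.11), and the correction gave 0.47. BCL2L14 rose from 0.043 to 0.605 CPM on means, a level so low that its log2 fold change of 3.73 has an SE of 0.82. The mitophagy receptor gene BNIP3L fell (log2 fold change -1.28 ± 0.14 SE), as did BNIP2 (-0.97 ± 0.09) and BCL2L15 (-0.51 ± 0.14). With the GC and length correction BNIP3L and BNIP2 stood at -0.85 and -0.26, and BCL2L15 turned to 0.08 and did not pass (adjusted p = 0.57). BECN1, an autophagy gene with a BH3 segment, did not pass (0.05 ± 0.08, adjusted p = 0.55), but passed with the correction (0.22, adjusted p = 0.013). The hypoxia gene BNIP3, BCL2L10 and the readthrough gene BCL2L2-PABPN1 did not pass the filter on low counts, and none of them reached 1 CPM in any library.

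**Figure D2:**
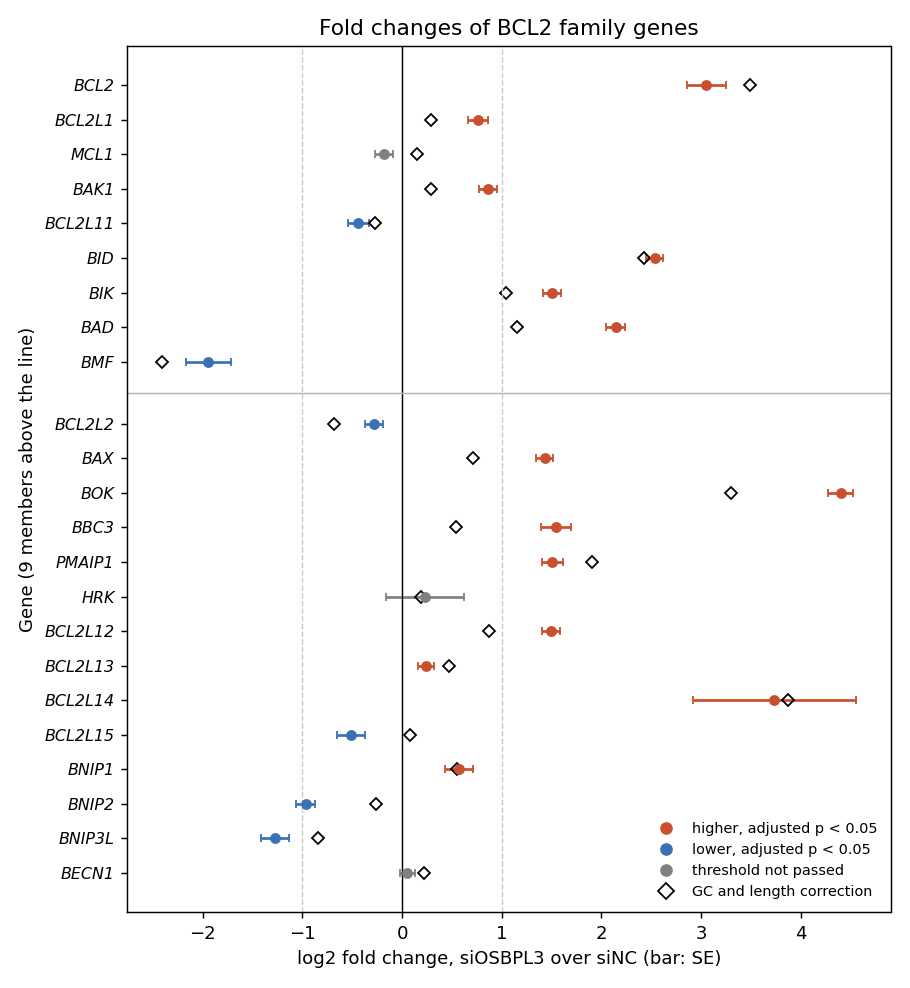
Log2 fold change (siOSBPL3 over siNC) of the 9 tested members and, under the line, of 14 other family genes. Filled points carry the SE and are coloured by call, open diamonds give the value with the GC and length correction, and dashed lines mark 2-fold. BOK has the largest change at 4.40, and MCL1, HRK and BECN1 did not pass the test.

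Levels of different genes were compared only per length, as CPM per kb of median transcript length (GENCODE 29). In siNC the family transcripts were mainly BCL2L1, at 170 CPM per kb, and MCL1, at 103 CPM per kb, which made up 42.5 ± 0.19% and 25.7 ± 0.75% of the 10 members' summed level (SD, n = 3). In siOSBPL3 BCL2L1 held 42.9 ± 4.38% of the sum and MCL1 13.5 ± 1.73%, while the share of BAD went from 6.45 ± 0.30% to 17.0 ± 1.79% and that of BID from 2.43 ± 0.10% to 8.39 ± 0.77%. The share of BCL2 stayed under 0.39% in every library in spite of its fold change. BCL2L1 and MCL1 were the leading pair in siNC, and BCL2L1 was the leading gene in siOSBPL3, with the longest transcript or the union of exons as the length as well. Within the leading pair of siNC the order turned with the length used. With the longest transcript MCL1 stood at 61.8 and BCL2L1 at 59.4 CPM per kb in siNC. With the union of exons they stood at 55.6 and 46.8. The order of the other members also depended on the length used. Only 2 of the 9 tested members kept their place in siNC with the longest transcript, so no further order is read.

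The sum over the BH3-only members moved further than the sum over the pro-survival members. Pro-survival transcripts summed to 272 ± 1.65 CPM per kb in siNC and 380 ± 29.8 in siOSBPL3 (SD, n = 3 each). BH3-only transcripts summed to 116 ± 2.99 CPM per kb in siNC and 269 ± 9.80 in siOSBPL3. The ratio of the sums was 2.42, 2.35 and 2.30 in the siNC libraries and 1.57, 1.44 and 1.25 in the siOSBPL3 libraries, which did not overlap. With the union of exons as the length the mean ratio was 2.40 in siNC and 0.99 in siOSBPL3, so the lower ratio held but not its size. The sums carry no GC and length correction. That correction took the log2 fold change of BAD from 2.14 to 1.15 and that of BCL2L1 from 0.76 to 0.29. For BID it hardly moved (2.53 to 2.43). The ratio was not computed with the correction, describes transcripts and was given no test.

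**Figure D3:**
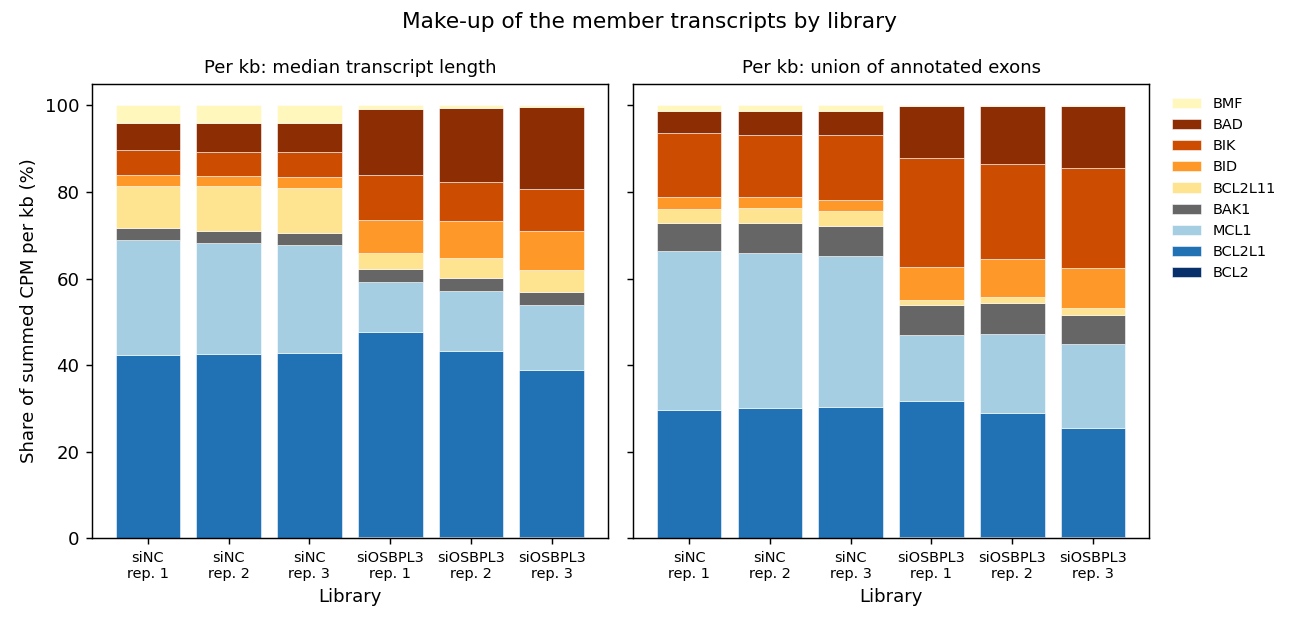
Share of each member in the summed CPM per kb of the members, by library, with median transcript length (left) and the union of annotated exons (right). Each stack is 1 library. MCL1 takes a smaller share in siOSBPL3 than in siNC in both panels, and BID, BIK and BAD take larger shares; BCL2, at the base, is too small to see.

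Downstream of the effectors, gene levels also moved in both directions. Of 19 tested genes for cytochrome c, the apoptosome, executioner caspases, their inhibitors and membrane channels, 7 rose, 8 fell and 4 did not pass, and 6 changed at least 2-fold (median log2 fold change 0.01). The share that passed, 78.9%, is near the background. The share that changed at least 2-fold, 31.6%, is below the 48.9% of all genes. APAF1, the scaffold of the apoptosome, fell from 36.0 ± 1.78 to 21.3 ± 2.93 CPM (SD, n = 3 each; log2 fold change -0.75, adjusted p = 5.8e-05), but with the GC and length correction it was at -0.03 and did not pass (adjusted p = 0.75). CASP9, the initiator caspase it activates, was at -0.40 ± 0.13 (SE; adjusted p = 0.013), a call lost without siNC replicate 2 (adjusted p = 0.057), and at -0.80 with the correction.

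CYCS, the cytochrome c gene, was at 366, 359 and 341 CPM in siNC and 336, 454 and 539 CPM in siOSBPL3, and just missed the threshold (log2 fold change 0.32, adjusted p = 0.0502). Its adjusted p under the alternatives lay between 1.3e-05 and 0.24. The value was 0.49 without siOSBPL3 replicate 1 and 0.77 with the GC and length correction, where CYCS passed, but 0.16 without siOSBPL3 replicate 3, where it did not. CYCS also has many processed copies in the genome, so its counts are uncertain. Inhibitors of apoptosis split. XIAP, which binds caspases directly, fell from 119 ± 5.44 to 50.5 ± 3.83 CPM (SD, n = 3 each; log2 fold change -1.24, and -0.55 with the correction) and BIRC2 fell by 1.16 on the log2 scale (-0.50 with the correction). Their NF-kB-inducible relative BIRC3 rose from 39.7 ± 0.81 to 115 ± 6.91 CPM (1.54, and 2.39 with the correction). AIFM1, a mitochondrial oxidoreductase that can be released in cell death, fell by 1.17, and the executioner caspase gene CASP6 rose by 1.35. The mitochondrial nuclease gene ENDOG rose by 1.40 on the log2 scale, but only by 0.15 with the correction, where it did not pass (adjusted p = 0.40).

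Genes for enzymes and partners that act on BCL2 family proteins also went both ways. Of 32 tested, 17 rose, 9 fell and 6 did not pass, and 12 changed at least 2-fold (median log2 fold change 0.38, against -0.00089 for all genes), so that 81.2% passed, beside 80.2% of all genes. Changes of at least 2-fold made up 37.5% of the list, beside 48.9% of all genes. CASP8, the caspase that cuts BID, rose from 36.8 ± 1.59 to 49.9 ± 2.26 CPM (SD, n = 3 each; log2 fold change 0.44, adjusted p = 0.00046, and 0.84 with the GC and length correction), and its relative CASP10 went from 1.61 ± 0.23 to 18.2 ± 2.67 CPM (3.50 ± 0.18 SE). GZMB, a granule protease of lymphocytes that can also cut BID, had no count in siNC and 1.16, 1.50 and 1.77 CPM in siOSBPL3, at least 47.5-fold higher against 3 counts over the siNC group. It lay outside the rule for named genes and was chosen after its values were seen.

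The dynein light chain genes DYNLL1 and DYNLL2, whose products hold BIM and BMF at the cytoskeleton, both rose, by 1.28 ± 0.14 and 0.56 ± 0.08 (log2 fold change ± SE), with DYNLL2 at 0.98 with the GC and length correction. The scaffold gene SFN rose by 1.90 (1.00 with the correction), PACS2, which takes part in moving BID to mitochondria, by 1.50 (0.61) and the JNK gene MAPK9 by 1.60. Of enzymes that act on MCL1 stability, both ligase and deubiquitinase genes fell. HUWE1, a ubiquitin ligase for MCL1, fell from 403 ± 11.7 to 147 ± 20.4 CPM (-1.45), and USP9X, a deubiquitinase for MCL1, from 326 ± 3.44 to 97.5 ± 9.09 CPM (SD, n = 3 each; -1.74, and -1.12 with the correction). USP13, another deubiquitinase for MCL1, named after its values were seen, did not pass (-0.11, adjusted p = 0.27), and with the correction it was higher (0.18, adjusted p = 0.047). The ubiquitin ligase genes FBXW7 and BTRC of the same list, also named after their values were seen, were lower (-0.80, adjusted p = 2.1e-05, and -0.26, adjusted p = 0.016). With the correction FBXW7 stood at -0.35, and BTRC at 0.01 did not pass (adjusted p = 0.91).

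Of 19 tested genes for transcription factors known to control BCL2 family genes, 6 rose, 10 fell and 3 did not pass, and 12 changed at least 2-fold (median log2 fold change -0.57), so that 84.2% passed, beside 80.2% of all genes. Changes of at least 2-fold made up 63.2% of the list, beside 48.9% of all genes. With the GC and length correction they numbered 9 of 19, beside 5823 of the 14435 genes tested with it. TP73, a factor that can induce BBC3, PMAIP1 and BAX, was at 0, 0.15 and 0.10 CPM in siNC and at 16.3, 26.8 and 25.5 CPM in siOSBPL3 (log2 fold change 8.03 ± 0.40 SE on only 8 siNC counts). E2F1 rose by 1.70 (0.91 with the GC and length correction) and STAT5A by 4.48, while ETS1 fell by 2.27, SP1 by 1.60 and the NF-kB subunit gene REL by 1.62 (-0.85 with the correction) on the log2 scale. Other NF-kB subunit genes of the list, named after their values were seen, did not fall with REL. NFKB1 rose by 1.10 on the log2 scale, and RELA was higher by 0.27 (adjusted p = 0.046). The RELA call was lost without siNC replicate 1, 2 or 3 or siOSBPL3 replicate 2 (adjusted p from 0.063 to 0.18). It was also lost with DESeq2, limma-voom and RLE factors (adjusted p = 0.051, 0.052 and 0.051). With the GC and length correction RELA was lower (-0.44, adjusted p = 0.0030).

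**Figure D4:**
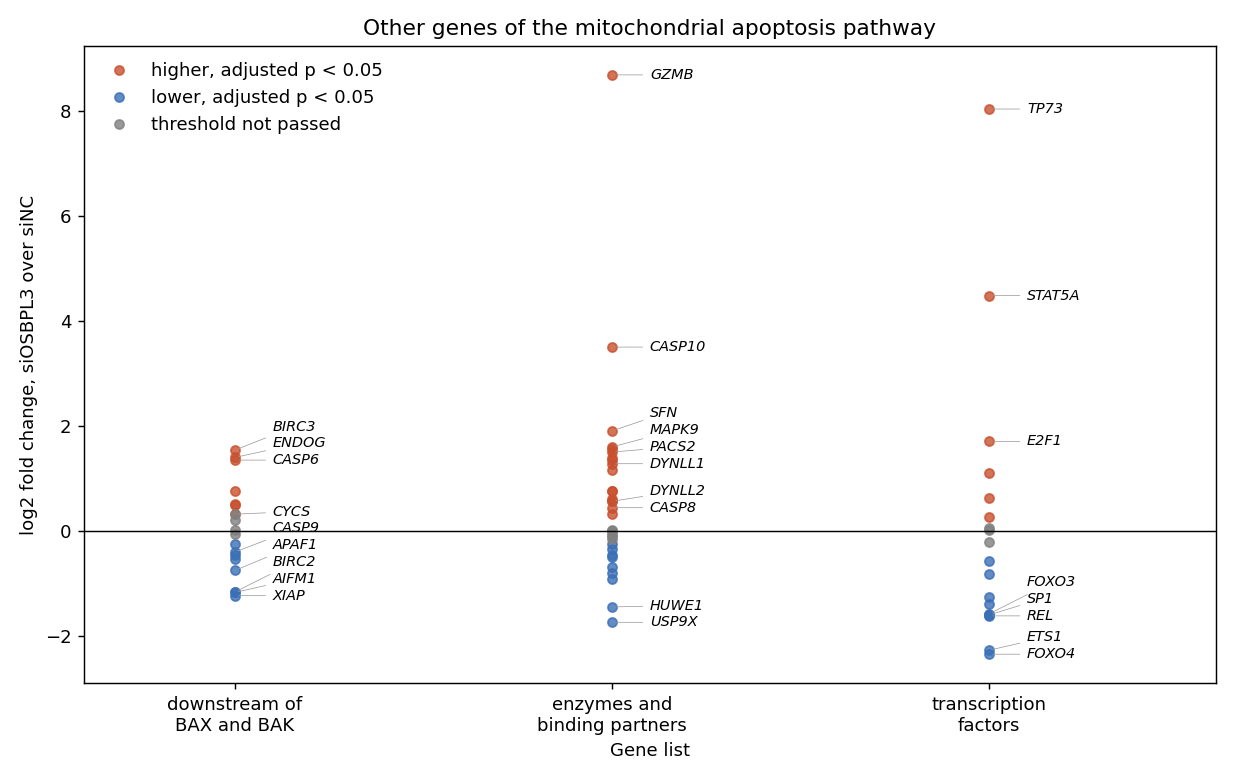
Log2 fold change (siOSBPL3 over siNC) of every tested gene in 3 lists: 19 genes downstream of BAX and BAK, 32 enzymes and binding partners, and 19 transcription factors. Points are genes, coloured by call, and some of the genes named in the text are labelled. Each list has genes on both sides of 0, and the fitted value of GZMB rests on no siNC count.

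The FOXO factors can switch on BCL2L11 when growth factor signalling is low, and the 3 FOXO genes of the list fell. FOXO3 was at 53.8, 55.9 and 55.0 CPM in siNC and 21.4, 15.7 and 17.9 CPM in siOSBPL3 (log2 fold change -1.58 ± 0.11 SE; adjusted p = 7.7e-08), FOXO4 fell by 2.35 and FOXO1 by 0.57 on the log2 scale, and all 3 were also lower with the correction (FOXO1 at -0.39, adjusted p = 0.032). FOXO1 and FOXO4 were named after their values were seen. The promoters of the members (RefSeq, GRCh38.p14, from 250 bases before to 50 bases after the start site) were searched on both strands for the FOXO motif GTAAACA and for the SP1 motif GGGCGG (a GC box). No FOXO match overlapped an SP1 match in the members, while SP1 matches of BID overlapped each other. A promoter was at hand for 8 of the 10 members, in 15 windows, some of which overlap. The FOXO motif was present in 1 of the 15 windows, that of BCL2L11, beside 3.42% of all 35116 windows. The SP1 motif was present in 10 of the 15 windows, which belong to 6 genes (BAD, BAK1, BCL2L1, BCL2L11, BID and BMF), beside 45.0% of all windows. The stretches around the FOXO motif of BCL2L11 and the SP1 motif of BMF, the 2 members that fell, are shown with the motif in capitals, both upstream of the start site.
BCL2L11, chr2:111120664-111120723, plus strand: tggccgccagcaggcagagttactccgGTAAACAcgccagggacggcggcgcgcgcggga
BMF, chr15:40108893-40108951, minus strand: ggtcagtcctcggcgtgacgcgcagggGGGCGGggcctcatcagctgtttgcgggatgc
The motifs begin 223 and 45 bases before the start site. Members with the SP1 motif include ones that rose and ones that fell, and a match describes letters in the sequence, not binding. Any link between the lower FOXO or SP1 transcripts and the fall of BCL2L11 or BMF was not tested. Of 3 further motifs searched in the same windows, the AP-1 motif TGANTCA was found in 0 of the 15 (7.71% of all windows). The E-box CACGTG was found in 2 of the 15, both of BID (7.26% of all windows), and the NF-kB motif in 1, of BMF (11.3%).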

How the data were processed

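The authors deposited raw read counts per gene symbol, whole numbers with no normalization, for 6 libraries (30040020 to 39701340 counts). Per the submitters' processing notes HISAT2 2.2.1, HTSeq 0.13.5 and GRCh38 (hg38) were used. Annotation and strand setting are not given in the sources used here, so overlapping antisense genes cannot be told apart. Groups and replicate numbers came from sample titles, and columns were matched by library name.

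Counts were tested in edgeR 4.0.16 (R 4.3.3): filterByExpr (minimum count 10, total 15), TMM, robust quasi-likelihood fit on group, two-sided, Benjamini-Hochberg adjustment over all 15506 genes tested, threshold 0.05. The SE is the log2 fold change divided by the root of F. The test was checked on simulated counts with known changes, where the share of false calls lay somewhat above the threshold and small changes were often missed. Only 200 genes were changed there, whereas 80.2% of the genes tested passed in the data. The simulation therefore does not check the scaling or the recovery of changes where most genes differ.

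Alternatives were DESeq2 1.42.0, limma-voom (limma 3.58.1), RLE factors, library totals, other filters, a stricter threshold (0.01), a block on replicate number, leaving out each library, and smoothing each library's counts against GC content and length of transcripts (mgcv 1.9.3, GENCODE 29, 93.1% of tested genes), called the GC and length correction. The union of exons as gene length was added after the data were seen. Named genes were the members, the other tested family genes, OSBPL3, the 6 smallest adjusted p of each of 3 pathway lists and 13 genes fixed by name, some of which are not reported here. The members and lists were chosen with earlier results of these data known. RefSeq (GRCh38.p14) gave the position of each of the 10 members.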

Additional observations from a re-analysis of the deposited data

How the results depend on the processing

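The count of members called was 8 or 9 under every alternative, and the members' calls and directions were the same in all but 3 of 135 results, all 3 of MCL1 (log2 fold change 0.15 with the GC and length correction, and calls when genes under a mean of 5 CPM were dropped and without siOSBPL3 replicate 3). Over 58 of the genes named, 829 results were as reported, 17 lost and 11 gained a call, and 10 changed sign. With the correction BCL2L15 went to 0.083, RELA to -0.44 and USP13 to 0.18. Leaving out each library, DDIT3, near 0, ran from -0.56 to 0.24. DDIT3 was at -0.13 with limma-voom, -0.13 with the replicate block and -0.057 with the correction. The cause of these changes was not tested.

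No effect shared by same-numbered libraries was seen: their deviations from the group means correlated at -0.020, -0.0042 and -0.019. Differently numbered libraries of the 2 groups correlated at -0.032 to 0.051. These values do not show whether same-numbered libraries were handled together. The replicate block gave 12277 calls over all genes, beside 12437, and 8 among the members. Leaving out each library gave 11814 to 13034 calls over all genes. The most came without siOSBPL3 replicate 1, beside 12281 without siOSBPL3 replicate 2 and 12556 without siOSBPL3 replicate 3.

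The longest transcript left 2 members in siNC and 3 in siOSBPL3 in the same place of the order of levels, and the union of exons left 1 and 3, because the lengths themselves differ. The ratio of pro-survival to BH3-only sums in siOSBPL3 was 0.94 with the longest transcript and 0.99 with the union of exons. Without length it was 3.96 in siNC and 1.88 in siOSBPL3. Depth limits BCL2A1, BCL2L14, GZMB and TP73, which rest on a few counts in siNC or none.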

Other observations

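Within the siOSBPL3 group, replicate 1, which held the most OSBPL3 (40.2 CPM, beside 12.2 and 15.1 CPM), also lay at one end for several genes of the apoptosis pathway. The stress-induced factor gene DDIT3 (CHOP), which can induce BCL2L11 and BBC3, was at 91.9 CPM there and at 38.5 and 36.6 CPM in the others, with 58.8, 54.0 and 53.4 CPM in siNC. Its log2 fold change was 0.01 with all libraries (adjusted p = 0.99, edgeR quasi-likelihood test) and -0.56 without that replicate (adjusted p = 2.2e-05). Replicate 1 was also the highest of the group for BBC3, PMAIP1, BCL2L1, BIK and BMF and the lowest for MCL1, BCL2L11, BID and BAD, but the middle library for BCL2 and BAK1. Any 1 of 3 libraries lies at one end for most genes, so these places carry little information. These values were chosen after they were seen, 3 libraries allow no test of one against the others, and what sets that library apart was not tested.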
